A study of Mus musculus with 24 samples.

Results

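Blood stem and progenitor cells that had carried the leukaemia fusion MLL::ENL since before birth were compared at 2 ages: at birth, when they were sorted from the liver, and 28 days later, when they were sorted from bone marrow. The libraries were chosen by title, 4 named P28 MLL-ENL LSK (E10.5 ME) and 4 named P0 MLL-ENL LSK (E10.5 ME), which makes 8 of the 24 libraries of the series. ME stands for a Tet-off transgene of human MLL::ENL that was switched on at embryonic day E10.5, and P0 and P28 are postnatal days 0 and 28. Wild-type (WT) libraries of the same ages and tissues, 4 at P0 from liver and 4 at P28 from bone marrow, served as the reference for the change that occurs without the transgene. The tissue changed with the age in both genotypes, so age and tissue cannot be told apart. The labels name every sorted population LSK (Lineage-negative, Sca-1-positive, KIT-positive), whereas the design text names Lineage-negative KIT-positive progenitors. The design text gives 4 biological replicates per group. Strain, sex, the promoter of the transactivator and the doxycycline schedule were not given in the sources used here, and the human transgene itself was not analysed here.

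Blood stem cells are made in the embryo, expand in the fetal liver and settle in the bone marrow around birth. During that passage they leave a fetal program, in which the RNA-binding protein LIN28B blocks maturation of let-7 microRNAs and so keeps let-7 targets such as HMGA2 and the IGF2BP proteins high, and they take up an adult program that includes lymphoid priming and stronger MHC class I presentation. MLL::ENL joins the chromatin-binding end of the methyltransferase KMT2A to the elongation factor ENL (gene Mllt1), and such fusions hold genes of the Hoxa and Meis1 group active. The series title places the work on protection of fetal cells against this fusion and on MLL3 (gene Kmt2c), a related methyltransferase.

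The 8 libraries held 42968051 to 80393500 counts in genes. Levels are given in CPM, the counts of a gene relative to all counts of its library, after scaling by the trimmed mean of M values (TMM), changes as log2 fold changes of P28 over P0 with their standard error (SE), and a gene is said to have been called, to have risen or to have fallen when its Benjamini-Hochberg adjusted p in edgeR's quasi-likelihood test was under 0.05 over 23059 genes. P0 library 1 stood apart from the other P0 libraries. Its log2 CPM correlated at r = 0.868, 0.923 and 0.853 with P0 libraries 2, 3 and 4, and at 0.909 to 0.927 with the 4 P28 libraries, which correlated at 0.975 to 0.982 among themselves (Pearson, across genes, as a description). The biological coefficient of variation was 83.2% within P0 ME and 33.4% within P28 ME, and 101.6% within P0 WT and 72.2% within P28 WT. The summed level of a neutrophil granule list was 1209.7, 41003, 22699 and 45234 CPM in P0 libraries 1 to 4 and 1866, 1693, 2128 and 2447 CPM in P28 libraries 1 to 4, so that P0 library 1 lay with, and below, the P28 libraries while the other P0 libraries lay far above them. Counts of the mature-cell lists are therefore given with and without it. In WT the same list spanned 1414 to 21698 CPM at P0 and 1547 to 1796 CPM at P28, and there too 1 P0 library, P0 WT library 1, lay apart and below all P28 libraries. Kit, the receptor used in the sort, was present in every library, at 1360.0, 453, 1152 and 499 CPM at P0 and 1116, 1015, 1241 and 889 CPM at P28, and its groups overlapped (log2 fold change 0.30 ± 0.39, adjusted p = 0.64). Ly6a, which encodes Sca-1, was at 105, 119.8, 79.1 and 71.2 CPM at P0 and 210.4, 209.7, 253 and 248 CPM at P28 and rose by 1.30 ± 0.21 on the log2 scale (adjusted p = 0.000149). In bulk RNA, fewer cells of a type and less RNA per cell cannot be told apart.

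At the chosen threshold 4206 genes were called, 18.2% of those tested: 2257 rose (9.79%) and 1949 fell (8.45%). The falls were larger in fold: among called genes, 854 rose and 1414 fell by at least 2-fold, and 65 rose and 667 fell by at least 8-fold. The share of called genes that rose was 53.7% with TMM, 45.7% with relative log expression (RLE) scaling, 44.3% with plain library totals and 42.5% in DESeq2, and the median log2 fold change over all genes was -0.185, so the split between directions depends on the scaling. The 4 P28 and 4 P0 values did not overlap in 5846 genes (25.4%), which included 83.4% of the called genes. P0 library 1 lay on the P0 side of all P28 libraries in 2159 (95.7%) of the genes that rose and in 1586 (81.4%) of those that fell. Leaving out P28 library 1 or P28 library 2 reduced the called genes to 2763 and 2742.

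Lin28b and other genes of the fetal program fell. Of 15 genes in a list of fetal stem cell regulators, 7 fell, 1 rose and 7 were not called, and the list's median log2 fold change was -1.68 against -0.185 over all genes tested. Leaving out P0 library 1 gave 7 falls and 1 rise. At the top of the pathway, Lin28b (chr10:45376620-45486395 of GRCm38) was at 110.2, 84.9, 83.0 and 69.8 CPM in P0 libraries 1 to 4 and 5.73, 5.55, 3.81 and 2.88 CPM in P28 libraries 1 to 4. Every P0 library lay above every P28 library, P0 library 1, which had the lowest neutrophil sum, was the highest of all, and Lin28b fell by 4.27 ± 0.78 on the log2 scale (adjusted p = 0.000851). Its paralog Lin28a, at 0.340, 10.2, 5.06 and 5.65 CPM at P0 and 0.083, 0.171, 0.0286 and 0.160 CPM at P28, fell by 5.56 ± 1.27 (adjusted p = 0.00355), although P0 library 1 was far below the other P0 libraries. In WT cells Lin28b changed by -3.53 ± 0.76 (adjusted p = 0.00593), and the difference between the ME and WT changes was not called (-0.74 ± 0.98, adjusted p = 0.762).

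The let-7 microRNAs that LIN28B restrains were not measured here, so their sequences are shown only to mark what their targets share. The RefSeq records used here held 10 distinct mature let-7 family members, miR-98 included, with the seed GAGGUAG at bases 2 to 8, given here in capitals. They came from 12 entries, and Mirlet7a-2, listed there only with its 3p product, is not among them.
let-7a-5p: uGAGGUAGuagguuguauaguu
let-7b-5p: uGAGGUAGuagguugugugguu
let-7g-5p: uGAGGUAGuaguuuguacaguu
The complement of that seed, CTACCTC, was searched on the transcribed strand in the longest annotated 3′ untranslated region (3′UTR) of each gene (GENCODE M21). It was present at least once in 1880 of 20996 genes (9.0%) and at least 3 times in 32 (0.15%). Lin28b, Igf2bp1 and Hmga2 each held 4 matches, Lin28a and Arid3a held 2, and Igf2bp2, Igf2bp3 and Smarcc1 held 1. The 22-base windows below, read 5′ to 3′ on the strand of the gene with the match in capitals, are from 6 of the 7 fetal genes that fell and were chosen among matches followed by an A, 3 for Igf2bp1 and 1 for each other gene.
Lin28b: cgggcgggaagtCTACCTCatg
Hmga2: gacattcaatttCTACCTCagc
Igf2bp1 site 1: gtgcgaagtaaaCTACCTCaag
Igf2bp1 site 2: cagtgctattaaCTACCTCagc
Igf2bp1 site 3: taaatggatgaaCTACCTCagt
Igf2bp2: cacaaataaaagCTACCTCagg
Igf2bp3: atttttactcaaCTACCTCagg
Arid3a: gcaagtttctttCTACCTCagg
The 8 windows lie in exonic 3′UTR sequence of GRCm38 at chr10:45381020-45381041 and chr10:120364222-120364243 on the minus strand, at chr11:95961776-95961797, chr11:95959355-95959376 and chr11:95958761-95958782 on the minus strand, at chr16:22059471-22059492 and chr6:49086785-49086806 on the minus strand, and at chr10:79953898-79953919 on the plus strand. Over the transcriptome the match count alone marked few genes. Of 28 tested genes with at least 3 matches, 6 fell and 3 rose, with a median of -0.42. The 6 include Lin28b, Igf2bp1 and Hmga2, already shown above among the fetal genes that fell, so this count is not independent of that choice. With 1 match 9.51% fell, and with 2 matches 8.54% fell. Among the 15400 tested genes with an annotated 3′UTR 9.6% fell, with a median of 0.02. The median 3′UTR was 4459 bases with at least 3 matches and 1101 bases among those 15400 genes. A match is a run of letters and no evidence of a working site.

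Among the carriers of those matches, all 3 genes of the IGF2BP proteins, which bind and stabilise growth-related mRNAs, fell at the RNA level. Igf2bp1 (chr11:95957163-96005940) was at 10.7, 14.1, 8.64 and 13.5 CPM at P0 and 0.228, 0.0264, 0.314 and 0.206 CPM at P28, a log2 fold change of -5.92 ± 0.65 on the log2 scale (adjusted p = 2.11e-06). Igf2bp3 went from 103, 124, 86.3 and 105 CPM to 12.6, 12.4, 11.6 and 7.73 CPM, a log2 fold change of -3.24 ± 0.31 (adjusted p = 3.48e-07). Igf2bp2 fell less, fell by 1.68 ± 0.35, from 149 ± 55.1 to 46.6 ± 9.62 CPM. None of these 3 genes had overlapping groups, and P0 library 1 lay among the other P0 libraries for Igf2bp1 and Igf2bp3 and above them for Igf2bp2. Hmga2, an architectural chromatin protein of fetal stem cells, was at 395, 207, 117 and 233 CPM at P0 and 28.1, 46.3, 38.1 and 34.3 CPM at P28 and fell without overlap of the groups (adjusted p = 1.06e-05). Arid3a, a DNA-binding factor of fetal lymphopoiesis, fell by 2.02 ± 0.27, from 88.5 ± 24.0 to 21.9 ± 2.30 CPM. Smarcc1, a subunit of the BAF chromatin remodeller, was the member that rose, by 0.86 ± 0.21 (adjusted p = 0.00605), from 134 ± 29.1 to 242 ± 48.3 CPM. In WT cells 8 members fell. In the difference between ME and WT, edgeR called no member, against 4 at an unadjusted p under 0.05, 0 in DESeq2 and 2 in limma.

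**Figure D1:**
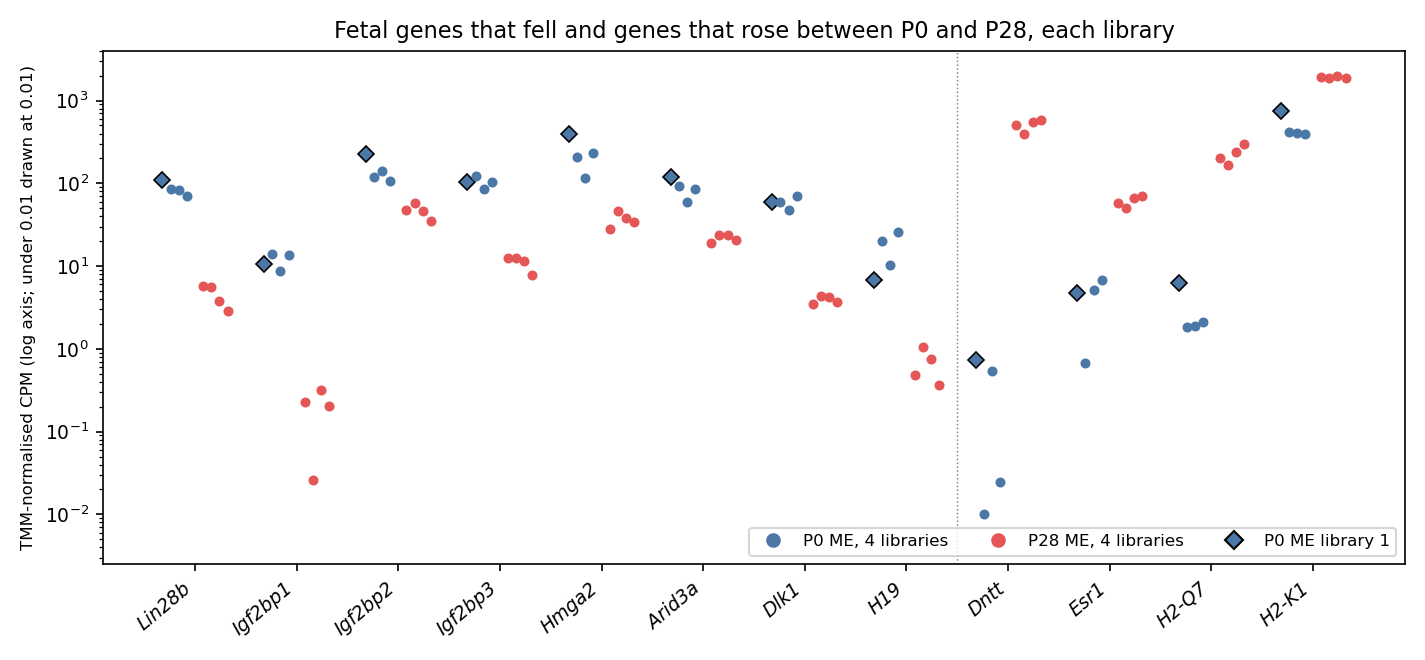
Points are single libraries, with the TMM-normalised CPM on a log axis for 8 genes that fell (left of the dotted line) and 4 that rose (right); blue is P0 ME, red is P28 ME and the diamond is P0 library 1, and the Dntt value of 0 in P0 library 2 is drawn at 0.01. For all 12 genes the 4 blue and 4 red points do not overlap, with Lin28b between 69.8 and 110.2 CPM at P0 and between 2.88 and 5.73 CPM at P28.

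Imprinted growth genes, which are expressed from 1 parental copy and are high in fetal tissues, fell in part: of 19 tested, 10 fell and 1 rose, with a median of -2.50, and leaving out any 1 P28 library left 7 falls. Dlk1, a Notch-related regulator of progenitor growth, was at 58.7, 59.8, 47.3 and 69.8 CPM at P0 and 3.47, 4.30, 4.26 and 3.66 CPM at P28 and fell by 3.91 ± 0.35 (adjusted p = 2.79e-07), with -3.92 ± 0.35 in WT cells. Its neighbours on chromosome 12, the noncoding RNAs Meg3 and Rian, fell (-3.83 ± 0.70 and -3.91 ± 0.89). The noncoding RNA H19 went from 6.71, 20.1, 10.3 and 26.0 CPM to 0.477, 1.05, 0.757 and 0.366 CPM, a log2 fold change of -4.55 ± 0.97 (adjusted p = 0.00246). Its partner Igf2, a fetal growth factor, was low, at 1.54 ± 0.738 CPM at P0 and 0.0663 ± 0.0178 CPM at P28, the latter close to the floor of 3 counts per library. Its call (adjusted p = 0.0421) was lost when any 1 of 7 of the 8 libraries was left out. Cdkn1c, which encodes the cell cycle inhibitor p57, fell by 1.11 ± 0.18, from 40.2 ± 6.60 to 18.6 ± 0.719 CPM. Sgce, a sarcoglycan gene, was the member that rose, by 0.51 ± 0.16, a call held in 10 of the 18 alternative settings. Kcnq1ot1, the long antisense RNA of the Cdkn1c domain, was the member that fell more in ME than in WT cells. It was at 33.7, 44.3, 44.3 and 43.7 CPM at P0 and 3.11, 4.18, 6.55 and 3.57 CPM at P28 in ME, a log2 fold change of -3.25 ± 0.32 (adjusted p = 4.14e-07), and at 31.7, 51.9, 30.2 and 58.6 CPM at P0 and 24.3, 37.4, 35.1 and 33.7 CPM at P28 in WT, where it was not called. The difference was -2.85 ± 0.42 (adjusted p = 0.00155). The strand setting of the counting was not given, so reads of Kcnq1ot1 and of the genes it overlaps cannot be told apart.

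Genes of MHC class I antigen presentation, which load peptides of the proteasome onto surface molecules for T cells to read, rose together. Of 21 members tested, 17 rose, none fell and 4 were not called, and the median was 1.18 against -0.185 over all genes. The count ranged from 14 to 18 over the 18 alternative settings and was 17 without P0 library 1. The classical heavy chain H2-K1 (chr17:33996017-34000347) was at 748, 415, 406 and 396 CPM at P0 and 1942, 1859, 1985 and 1897 CPM at P28 and rose by 1.97 ± 0.19 (adjusted p = 3.48e-07). Its counterpart H2-D1 went from 1317, 924, 889 and 846 CPM to 2613, 2297, 2745 and 2438 CPM, a rise of 1.34 ± 0.15 (adjusted p = 4.2e-06). The light chain B2m was at 1735, 1793, 1128 and 1799.8 CPM at P0 and 2680.5, 2765, 2840.4 and 3134 CPM at P28, and its rise of 0.82 ± 0.23 (adjusted p = 0.0147) was lost without P0 library 3, at an adjusted p of 0.0533. All 3 genes had every P28 library above every P0 library, and P0 library 1 was the highest P0 library for H2-K1 and H2-D1. The largest fold belonged to the nonclassical chain H2-Q7, at 6.23, 1.86, 1.88 and 2.12 CPM at P0 and 204, 169, 237 and 297 CPM at P28 (6.22 ± 0.56, adjusted p = 6.88e-07), followed by H2-Q6 with 5.44 ± 0.60. H2-Q6 and H2-Q7 are near-identical copies whose reads the counting could split, and how reads that map to both were counted was not given, so their separate values are uncertain. Further along the pathway, the peptide pump subunits Tap1 and Tap2 rose by 1.41 ± 0.27 and 1.26 ± 0.15, the immunoproteasome subunits Psmb8 and Psmb9 by 0.75 ± 0.14 and 1.18 ± 0.17, and the trimming peptidase Erap1 by 0.83 ± 0.20. Nlrc5, the transactivator of these genes, rose by 2.27 ± 0.35, from 13.1 ± 8.62 to 63.1 ± 13.5 CPM (adjusted p = 0.000102). In WT cells 14 members rose, with a median of 0.88 beside 7.68% of all genes called there. In the difference from WT no member was called by edgeR, DESeq2 or limma, and none had an unadjusted p under 0.05.

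The MHC class II list moved in part. Of 10 members, 4 rose and 6 were not called, beside 9.79% that rose over all genes. The 4 were the peptide-editing chains H2-DMa (1.48 ± 0.19, adjusted p = 1.74e-05), H2-Ob (1.18 ± 0.20), H2-Oa (1.29 ± 0.25) and H2-DMb1 (0.56 ± 0.19, adjusted p = 0.0366). The call of H2-DMb1 was held in 6 of the 18 alternative settings and was lost in 6 of the 8 fits with 1 library left out. The peptide-presenting chain H2-Aa was at 85.4, 2.16, 14.1 and 0.197 CPM at P0 and 10.6, 8.72, 9.90 and 17.4 CPM at P28, and its log2 fold change of -1.13 ± 0.89 was not called (adjusted p = 0.409). P0 library 1 held the summed class II list at 716.7 CPM, above the range of 347 to 475 CPM at P28 and of the other P0 libraries, and without it 5 members were called and the list's median moved from 0.03 to 1.12.

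Type I interferon response genes were called about as often as all genes. Of 35 members, 2 rose, 5 fell and 28 were not called, beside 18.2% called over all genes, with a median of -0.15. Those that fell were effectors of antiviral defence. Rsad2, which encodes viperin, was at 166, 221, 223 and 192 CPM at P0 and 49.5, 42.3, 78.2 and 62.6 CPM at P28 and fell by 1.79 ± 0.27 (adjusted p = 6.76e-05). Isg15, a ubiquitin-like modifier, went from 68.7, 54.9, 50.1 and 61.4 CPM to 21.4, 22.0, 37.2 and 32.9 CPM, a log2 fold change of -1.05 ± 0.29 (adjusted p = 0.0138). Ifit3, Ifit3b and Oas2, which sense or restrain viral RNA, fell (-1.38 ± 0.43, -1.71 ± 0.53 and -0.95 ± 0.28) with adjusted p from 0.0209 to 0.0258. The RNA sensor Ddx58 and the membrane protein Ifitm1 rose, by 0.90 ± 0.24 and 0.77 ± 0.22. The counts are not firm: 8 members rose and 3 fell without P0 library 1, 2 rose and 1 fell without P28 library 1, and 1 rose and 1 fell without P28 library 2. In WT cells Rsad2 and Isg15 also fell (-1.74 ± 0.26 and -1.19 ± 0.29), and the difference from WT was called for no member by edgeR, DESeq2 or limma, with 1 at an unadjusted p under 0.05.

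**Figure D2:**
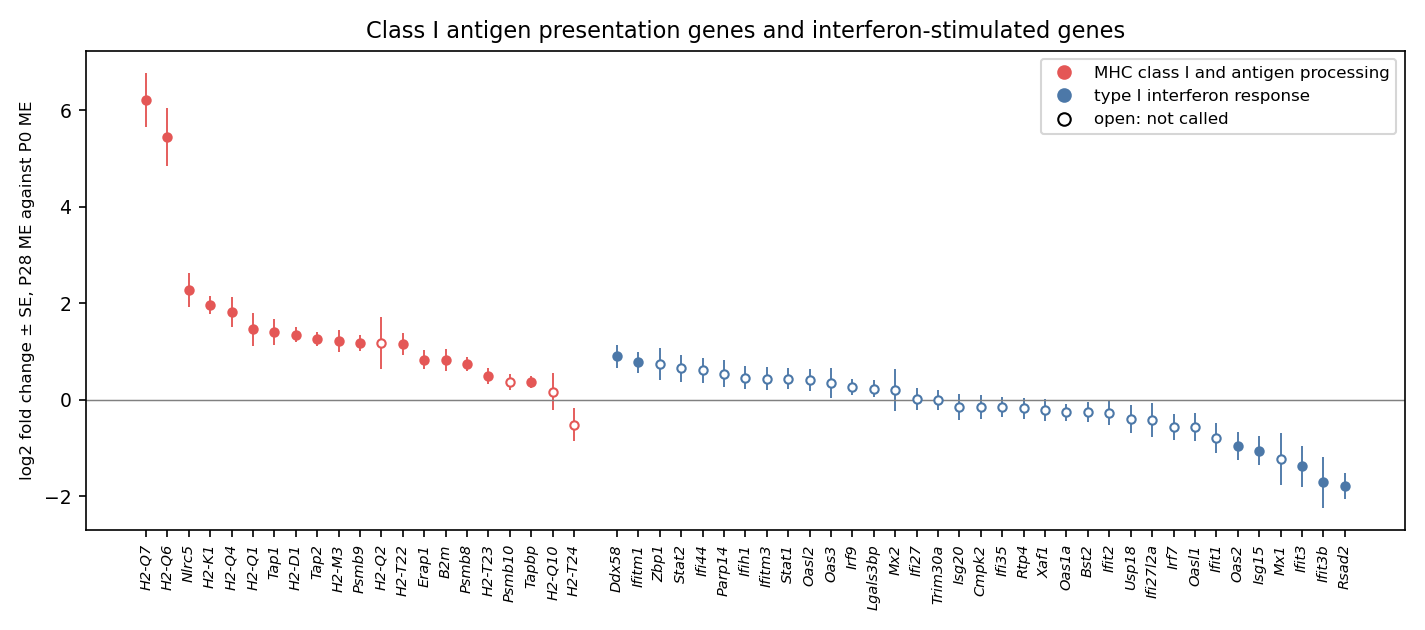
Each point is the log2 fold change of P28 ME over P0 ME of 1 gene, with its SE as the bar; red marks MHC class I and antigen processing genes, blue type I interferon response genes, and open points were not called. The red points lie above 0 except H2-T24 at -0.51, whereas the blue points run from 0.90 (Ddx58) to -1.79 (Rsad2).

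Interferon-stimulated genes and part of the class I pathway are both read through the interferon-stimulated response element (ISRE), and the promoters shown here are one from the genes that rose and one from those that fell. Each is the RefSeq window of GRCm38.p6 from 250 bases before to 50 bases after the start of the gene, with matches to GAAANNGAA on either strand in capitals. B2m lies at chr2:122147437-122147736 on the plus strand and Isg15 at chr4:156200769-156201068 on the minus strand.
B2m: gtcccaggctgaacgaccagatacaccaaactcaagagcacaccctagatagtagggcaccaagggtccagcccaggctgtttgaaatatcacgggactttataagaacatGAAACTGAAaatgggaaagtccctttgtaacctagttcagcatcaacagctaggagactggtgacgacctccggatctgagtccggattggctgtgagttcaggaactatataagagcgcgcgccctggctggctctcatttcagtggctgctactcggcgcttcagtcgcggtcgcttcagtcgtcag
Isg15: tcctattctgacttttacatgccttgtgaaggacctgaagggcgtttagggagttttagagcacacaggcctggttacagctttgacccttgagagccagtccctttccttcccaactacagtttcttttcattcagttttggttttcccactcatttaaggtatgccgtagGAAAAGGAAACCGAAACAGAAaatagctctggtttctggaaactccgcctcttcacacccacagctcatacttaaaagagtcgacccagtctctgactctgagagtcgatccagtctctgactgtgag
B2m held 1 match, 139 bases before the start, and Isg15 held 3 that overlap, 78, 72 and 66 bases before it. Such a match was present in 8.6% of 27025 promoters of the same length, in 14 of 25 interferon list promoters and in 4 of 17 class I list promoters, namely B2m, Erap1, H2-T22 and H2-T23. Of the 5 interferon genes that fell, 4 had a promoter in the table, and all 4 held a match. A promoter without these letters may still be bound by the same factors.

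Most genes of a DNA replication and mitosis list rose. Of 35 members of the list, 20 rose, none fell and 15 were not called, with a median of 0.94, and between 18 and 22 rose over the alternative settings. Its summed level was 4712, 5594, 6367 and 5368 CPM at P0 and 10419, 10987, 9103 and 8023 CPM at P28, and the groups did not overlap. The replicative helicase MCM2-7 was represented in all 6 of its subunits. Mcm6 (chr1:128331590-128359664) was at 508, 556, 605 and 472 CPM at P0 and 1349, 1327, 1207 and 962 CPM at P28 and rose by 1.18 ± 0.20 (adjusted p = 0.000338). Mcm2, Mcm3, Mcm4, Mcm5 and Mcm7 rose by 1.42 ± 0.28, 1.28 ± 0.22, 1.32 ± 0.23, 1.11 ± 0.21 and 0.99 ± 0.23. The loading factors Cdc6 and Cdt1, which place the helicase on origins, rose by 1.07 ± 0.24 and 1.10 ± 0.25, and Rrm1, the large subunit of ribonucleotide reductase, by 0.94 ± 0.21. Among genes of mitosis, Top2a, the topoisomerase that untangles chromosomes, went from 303 ± 53.8 to 734 ± 109.7 CPM (1.28 ± 0.25, adjusted p = 0.000933), the checkpoint kinase Bub1b rose by 1.46 ± 0.30 and the proliferation marker Mki67 by 0.94 ± 0.23. P0 library 1 was below all P28 libraries for each of the 20 genes that rose; without it, 18 members rose and 2 fell. Genes called higher were longer than the rest, with a median exon length of 5002 bases against 2770 among genes not called. The log2 fold change correlated with the length of the longest annotated transcript at a Spearman rho of 0.226 across genes. Within the replication and mitosis list the median was 4350 bases among the called and 4083 among the others, and with offsets for GC content and length 20 members rose, with a median of 0.77.

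The replication and mitosis genes took another course in WT cells. There none of the 35 members rose in edgeR, DESeq2 or limma or at an unadjusted p under 0.05, and 5 fell in edgeR, with a median of -0.32. The ME change exceeded the WT change in 34 of 35 members, with a median difference of 1.16, and 8 members were called in the difference, beside 0.72% of all genes. The 8 were Mcm4 (1.51 ± 0.32, adjusted p = 0.0302), Mcm5 (1.39 ± 0.30), Mcm6 (1.19 ± 0.29), Uhrf1 (1.56 ± 0.37), Rrm1 (1.27 ± 0.30), Cdc20 (1.18 ± 0.28), Ccnb2 (0.95 ± 0.19) and Bub1 (adjusted p = 0.0407). Mcm5 was at 249, 365, 474 and 211 CPM at P0 and 239, 262, 300.4 and 271 CPM at P28 in WT, against 197, 256, 279 and 258 and 578, 616, 522 and 427 CPM in ME. The ME groups were separate and the WT groups overlapped. These 8 calls were held in 7 to 13 of the 18 alternative settings each. All were lost without P28 library 1 and without P28 library 2. All were also lost with plain library totals and when only the compared groups were fitted. The difference stayed positive in every setting, none of which left out a single WT library.

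**Figure D3:**
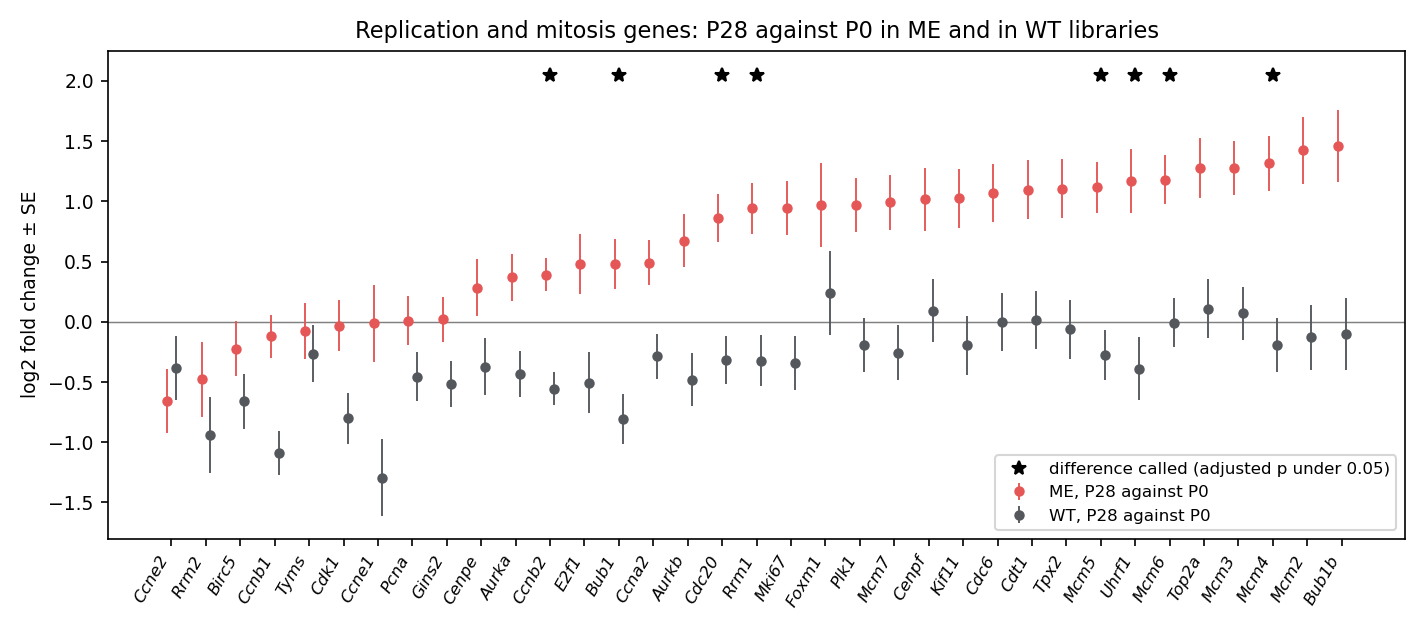
Points are the log2 fold changes of P28 over P0, with the SE as bars, of 35 replication and mitosis genes in ME (red) and WT (grey) libraries, ordered by the ME change; stars mark the 8 genes whose difference was called. The red points run from -0.66 (Ccne2) to 1.46 (Bub1b) and lie above the grey ones in all genes but 1.

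Replication genes are classical targets of E2F factors. The promoters of both MCM genes below were chosen among those that carry the E2F letters TTTGGCGC. Both genes also rose in ME and were called in the difference. Rrm1 and Uhrf1 likewise rose and were called in the difference, but their promoters held no match. Capitals mark matches to TTTGGCGC or TTTCCCGC on either strand. Mcm6 lies at chr1:128359656-128359955 on the minus strand and Mcm5 at chr8:75109259-75109558 on the plus strand (RefSeq, GRCm38.p6).
Mcm6: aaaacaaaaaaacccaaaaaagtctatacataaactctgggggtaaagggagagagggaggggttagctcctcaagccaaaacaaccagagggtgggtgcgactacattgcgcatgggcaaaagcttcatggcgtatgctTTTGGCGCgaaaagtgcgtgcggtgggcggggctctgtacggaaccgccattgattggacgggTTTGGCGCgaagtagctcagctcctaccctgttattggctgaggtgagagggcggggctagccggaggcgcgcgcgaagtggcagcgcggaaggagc
Mcm5: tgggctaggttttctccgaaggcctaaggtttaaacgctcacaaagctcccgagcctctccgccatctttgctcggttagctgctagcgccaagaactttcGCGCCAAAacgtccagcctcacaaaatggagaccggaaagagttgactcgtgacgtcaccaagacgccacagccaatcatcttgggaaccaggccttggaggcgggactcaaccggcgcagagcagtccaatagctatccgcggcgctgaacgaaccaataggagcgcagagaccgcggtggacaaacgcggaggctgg
Mcm6 held 2 matches, 110 and 47 bases before the start, and Mcm5 held 1, 149 bases before it. These letters were in 1.6% of all 27025 promoters and in 6 of 28 list promoters (Cdc6, Cdt1, Mcm3, Mcm5, Mcm6 and Mcm7), all of genes that rose.

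Several genes that copy or write chromatin marks also rose. In the polycomb and DNA methylation list 7 of 25 rose and 1 fell, beside 9.79% that rose and 8.45% that fell over all genes. Dnmt1, the maintenance DNA methyltransferase, was at 179, 117, 304 and 97.5 CPM at P0 and 675, 676, 615 and 426 CPM at P28 and rose by 1.78 ± 0.33 (adjusted p = 0.000773), and its partner Uhrf1, which recognises hemimethylated DNA, rose by 1.17 ± 0.26. The polycomb subunits Cbx2 and Eed rose by 1.56 ± 0.37 and 0.44 ± 0.14, the methyltransferase Ezh1 by 0.98 ± 0.26, and the polycomb variant subunit Pcgf6 by 0.85 ± 0.21. The histone chaperones Rbbp7 and Rbbp4 went opposite ways, 0.71 ± 0.13 and -0.61 ± 0.14. In the list of COMPASS methyltransferases, which place methyl marks on lysine 4 of histone H3, 6 of 16 rose and 1 fell. The tether subunits Men1 and Psip1, which bind KMT2A and its fusions, rose by 1.06 ± 0.16 (adjusted p = 0.0001) and 0.96 ± 0.14 (adjusted p = 5.93e-05), and the shared subunits Rbbp5, Wdr5, Ash2l and Cxxc1 by 1.11 ± 0.19, 0.79 ± 0.17, 0.56 ± 0.14 and 1.07 ± 0.21. Kmt2a itself was the member that fell: it was at 82.8, 90.2, 107 and 85.7 CPM at P0 and 56.5, 53.4, 58.4 and 57.3 CPM at P28 (-0.70 ± 0.17, adjusted p = 0.00635). In WT cells it rose by 0.61 ± 0.17 (adjusted p = 0.0297), and the difference was called (-1.31 ± 0.24, adjusted p = 0.017), a call lost without P28 library 1, without P28 library 2 and when only the compared groups were fitted. Mllt1, the mouse gene of the fusion partner ENL, rose by 1.17 ± 0.27, from 60.1 ± 12.8 to 136 ± 8.78 CPM. Whether reads of the human transgene were counted in mouse Kmt2a or Mllt1 was not tested. Kmt2c, which encodes MLL3, was at 44.0, 21.6, 50.1 and 34.8 CPM at P0 and 45.3, 34.3, 48.5 and 33.9 CPM at P28; its groups overlapped and it was not called (0.11 ± 0.24, adjusted p = 0.8).

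Of 26 known targets of MLL fusions tested, 6 rose, 2 fell and 18 were not called, with a median of 0.14. Over all genes 9.79% rose and 8.45% fell. Myc, the growth regulator, rose most, from 171, 256, 196 and 229 CPM to 608, 555, 642 and 794 CPM (1.61 ± 0.23, adjusted p = 5.35e-05). Arid1b, a BAF subunit, the histone H3 lysine 79 methyltransferase Dot1l and the survival gene Bcl2 rose by 1.08 ± 0.20, 0.86 ± 0.24 and 0.48 ± 0.17, and the list also holds Men1 and Psip1. Zeb2, a repressor of lineage genes, fell by 0.76 ± 0.25, and the translation regulator Cpeb2 fell by 1.58 ± 0.54; no fall was called without P0 library 2, P28 library 1, P28 library 2 or P28 library 4. The homeobox factors at the core of the fusion program were not called. Hoxa9 was at 233, 125, 129 and 144 CPM at P0 and 184, 166, 168 and 195 CPM at P28, and Meis1 at 394, 239, 244 and 203 CPM and 321, 312, 361 and 319 CPM, with log2 fold changes of 0.18 ± 0.17 and 0.28 ± 0.19. In both genes P0 library 1 was the highest of all 8 libraries and the other P0 libraries lay below every P28 library. Without P0 library 1, 9 members of the list rose and 1 fell, and the median was 0.43. In WT cells 6 members rose and 1 fell, with a median of 0.32, beside 7.68% of all genes called there. In the difference from WT edgeR called 1 member, and the median difference was -0.22.

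Of 30 genes of stem cell identity tested, 7 rose and 1 fell, beside 9.79% that rose and 8.45% that fell over all genes. Without P0 library 1, 11 rose, whereas 4 rose without P0 library 4, without P28 library 1, without P28 library 2, with RLE scaling and with plain totals. Cd34, a sialomucin of progenitors, went from 699, 369.5, 466 and 379 CPM to 1162, 1008, 1161 and 1087 CPM (1.21 ± 0.20, adjusted p = 0.000273). Gata2, a transcription factor of stem and mast cells, rose by 0.90 ± 0.23, and the redox regulator Txnip by 1.20 ± 0.31. The surface proteins Cd48, Procr and Esam rose by 0.61 ± 0.21, 0.50 ± 0.16 and 0.83 ± 0.27, with adjusted p from 0.0263 to 0.0473. The tetraspanin Cd9 fell by 1.08 ± 0.25. The stem cell factors Hlf and Mecom were not called (0.47 ± 0.17, adjusted p = 0.0577, and 0.28 ± 0.24, adjusted p = 0.446).

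Lymphoid genes changed in both directions. The largest rise among the genes named was that of Dntt (chr19:41029275-41059525), which encodes the terminal transferase of lymphoid-primed progenitors. It was at 0.727, 0, 0.547 and 0.0247 CPM in P0 libraries 1 to 4 and 511, 389.7, 558 and 582 CPM in P28 libraries 1 to 4, a rise of 10.53 ± 1.05 (adjusted p = 5.56e-06). The same gene rose by 7.42 ± 0.91 in WT cells, to 291, 294, 247 and 217 CPM, and the difference of 3.11 ± 1.09 was not called (adjusted p = 0.16). Sox4, a factor of lymphoid progenitors, rose by 0.88 ± 0.17. In the early B-lymphoid list, which holds both, 15 of 27 members fell and 2 rose, with a median of -2.51, and 16 fell and 3 rose without P0 library 1. The B-lineage factor Ebf1 was at 27.6, 59.3, 47.0 and 109.6 CPM at P0 and 0.643, 1.36, 0.543 and 1.28 CPM at P28 and fell by 5.99 ± 0.78 (adjusted p = 2.83e-05). Igll1 and Vpreb1, the surrogate light chains, fell (-6.59 ± 0.92 and -4.91 ± 0.73), and the signalling chain Cd79a fell by 5.49 ± 0.87. Rag1, a subunit of the recombinase, fell by 2.97 ± 0.69, and the interleukin-7 receptor Il7r fell by 2.79 ± 0.58. P0 library 1 was above all P28 libraries for all 15 genes that fell. The summed level of the list was 3049, 2037, 2385 and 2617 CPM at P0 and 3315, 2899.6, 3497 and 3206 CPM at P28, and the groups overlapped. In the T-cell and NK list, 2 of 19 rose, the kinase Lck (1.51 ± 0.25) and the adaptor Lat (0.95 ± 0.23). There 3 fell, Id2 (-2.99 ± 0.39), Cd2 and Cd3d. Over all genes 9.79% rose and 8.45% fell. Id2 is an inhibitor of E proteins that is high in innate lymphoid cells. Cd2 was at most 3.65 CPM and Cd3d at most 6.01 CPM in any of the 8 libraries, and the call of Cd3d was held in 7 of the 18 alternative settings. Without P0 library 1, 2 rose and 3 fell; 1 fell without P0 library 4, P28 library 1, P28 library 2 or P28 library 4.

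Many genes of mature blood cells fell, and here P0 library 1 did not always take part. In the neutrophil granule list 17 of 22 fell and 1 rose, with a median of -4.87, and 17 fell without P0 library 1. S100a9, a calcium-binding protein of neutrophils, was at 69.1, 5714, 2333 and 7498 CPM at P0 and 46.9, 13.0, 18.2 and 43.1 CPM at P28 and fell by 7.01 ± 1.46 (adjusted p = 0.00296). Lcn2, an iron-scavenging granule protein, went from 11.4, 858, 332 and 1117 CPM to 9.40, 2.73, 5.98 and 3.34 CPM (-6.76 ± 1.33). S100a9 and Lcn2 were the 2 of 17 genes in which P0 library 1 was above all P28 libraries; in the other 15 it was at or below some of them. Csf3r, the receptor for the neutrophil growth factor G-CSF, was the member that rose, by 0.90 ± 0.22. In WT cells 12 members fell and 1 rose.

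Of 22 macrophage genes 20 fell, with or without P0 library 1, and the median was -4.45. The summed level was 217, 3303, 2708 and 2281 CPM at P0 and 120.2, 136, 181 and 111 CPM at P28, so P0 library 1 lay above all P28 libraries, but closer to them than to the other P0 libraries. Clec4f, a lectin of liver-resident Kupffer cells, was at 7.35, 272, 236 and 169 CPM at P0 and at most 2 counts per library at P28, at least 3210.0-fold lower when P28 is set at a floor of 3 counts in each library. The complement component C1qa and the adhesion receptor Adgre1, which carries the F4/80 epitope, fell (-5.96 ± 1.03 and -6.36 ± 1.13), and the growth factor receptor Csf1r fell by 3.51 ± 0.54. In WT cells 15 members fell.

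Erythroid and heme genes fell in 17 of 31 members, with a median of -1.63. Adult globin Hbb-bs was at 41.2, 3038, 1717 and 4427 CPM at P0 and 93.4, 177, 91.9 and 82.2 CPM at P28 (-4.38 ± 0.99, adjusted p = 0.0049), and P0 library 1 lay below all P28 libraries. Hba-a1 and Hba-a2, which share sequence, fell (-4.67 ± 1.09 and -4.51 ± 1.08), and the transferrin receptor Tfrc fell by 1.94 ± 0.38. P0 library 1 was above all P28 libraries in 2 of the 17, and 19 members fell without it; 9 fell when only the compared groups were fitted and 11 in limma. In WT cells 22 members fell and 1 rose. Of the mast cell and basophil list 9 of 20 fell and Gata2 rose; the histidine decarboxylase Hdc fell by 4.07 ± 0.72, from 29.6, 173, 281 and 182 to 6.68, 7.41, 14.5 and 11.0 CPM. The number of falls in this list was 11 without P0 library 1, 12 in DESeq2, 3 without P28 library 1 or P28 library 2, 4 without P0 library 3 or P28 library 3 and 5 without P28 library 4. The fitted median was -2.53, or -2.38 with genes at the floor set at their bound. Among eosinophil genes 4 of 10 fell (Ear1, Ear2, Prg3 and Siglecf), and the number was 6 without P0 library 1, 7 in DESeq2, 0 without P28 library 1 or P28 library 2, 1 without P0 library 2 and 2 without P0 library 3 or P28 library 3. Of 20 megakaryocyte and platelet genes 6 fell, among them the platelet chemokine Pf4 (-2.40 ± 0.46) and the glycoprotein Gp9 (-1.37 ± 0.25), and the transcription factor Nfe2 rose by 0.63 ± 0.13; without P0 library 1, 5 fell and 1 rose. Of 14 dendritic cell genes 2 fell, Ly6d (-4.44 ± 1.19) and Cd209a, beside 8.45% that fell over all genes. The call of Cd209a was held in 7 of 17 alternative settings. In the dendritic cell list 2 rose and 2 fell without P0 library 1, 1 fell without P28 library 1, P28 library 2 or P28 library 4, and 6 fell in DESeq2.

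Hepatocyte genes were detected in the P0 libraries, which came from liver. Of 21 tested, 18 fell and 1 rose, and in 12 of those that fell every P28 library was at or under the floor of 3 counts. Without P0 library 1, 18 fell and 1 rose. With a filter of at least 10 counts in 12 libraries, which leaves fewer of these genes, 7 fell. The fitted median of -8.86 rests on those genes and was -5.73 with them set at their bound. Alb, which encodes serum albumin, was at 8.57, 87.3, 29.7 and 71.2 CPM at P0 and at 0 counts in all P28 ME libraries, at least 923-fold lower. Ahsg, a fetal serum glycoprotein, was at least 522-fold lower. Apoe, which macrophages also make, fell by 2.62 ± 0.37, from 217, 722, 829 and 670.0 to 82.8, 71.3, 147 and 97.0 CPM. Hnf4a, a nuclear receptor of hepatocytes, was the member that rose, by 1.15 ± 0.38 (adjusted p = 0.0357), from 158, 49.0, 107 and 72.2 CPM to 227, 239, 225 and 167 CPM, in the libraries that held no Alb count at P28; its call was held in 10 of the 18 alternative settings. P0 library 1 was above all P28 libraries in 15 of the 18 that fell, although its Alb level was the lowest of the P0 libraries. Its summed hepatocyte level of 613 CPM lay within the range of 484 to 628 CPM at P28. The P28 sums hold Hnf4a, at 167 to 239 CPM, and Apoe, at 71.3 to 147 CPM. The summed level is therefore no measure of hepatocyte RNA alone. In the endothelium and stroma list 3 of 20 rose, the marrow stromal genes Cxcl12, Adipoq and Bgn, and 3 fell, the sinusoidal genes Stab2 and Lyve1 and the endothelial cadherin Cdh5. Cxcl12, the niche chemokine, was at 0.155, 0.439, 0.581 and 1.06 CPM at P0 and 9.94, 6.24, 6.40 and 5.79 CPM at P28 (3.69 ± 0.90, adjusted p = 0.00702), and Adipoq was at 0 counts in every P0 library and at 0.332, 0.369, 0.314 and 0.458 CPM at P28, at least 6.62-fold higher. Stab2 fell by 2.69 ± 0.59. Without P0 library 1, 3 of the list rose and 3 fell. Over all genes 9.79% rose and 8.45% fell. The part of RNA from other cell types in the changes of the sorted cells was not tested.

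**Figure D4:**
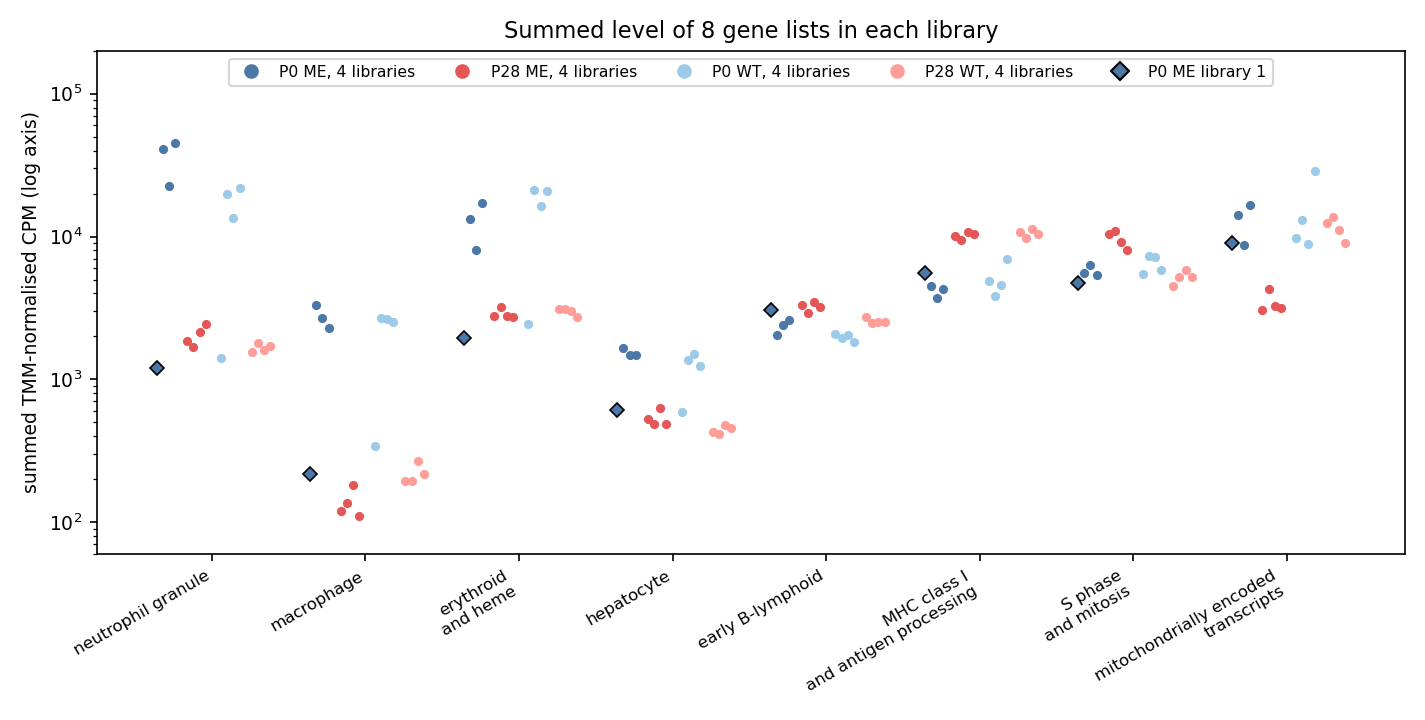
Points are single libraries and show the summed TMM-normalised CPM of 8 gene lists on a log axis, in P0 ME (dark blue), P28 ME (red), P0 WT (light blue) and P28 WT (pink), with P0 ME library 1 as a diamond. The diamond lies below the P28 ME libraries for neutrophil granule and erythroid genes, just above them for macrophage genes, and with P0 for replication and mitosis genes.

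Receptors and signalling genes changed in both directions. Of 32 cytokine receptor genes, 5 rose and 4 fell, beside 9.79% that rose and 8.45% that fell over all genes, and 3 rose without P0 library 2 or without any 1 P28 library. The interleukin-1 receptor Il1r1 rose by 1.42 ± 0.29, from 34.1 ± 15.8 to 91.5 ± 16.3 CPM (adjusted p = 0.00159), the interleukin-10 receptor chains Il10ra and Il10rb by 1.24 ± 0.32 and 0.48 ± 0.17, and Il21r by 0.58 ± 0.20; the calls of Il10rb and Il21r were held in 4 of the 18 alternative settings each. The interferon-gamma receptor Ifngr1 fell by 0.93 ± 0.19, from 486 ± 155 to 255 ± 25.7 CPM (adjusted p = 0.00121), and the GM-CSF receptor chain Csf2ra fell by 1.10 ± 0.28. Flt3, a receptor of early progenitors, was not called (0.59 ± 0.32, adjusted p = 0.204). Of 14 genes of JAK-STAT feedback 3 rose and none fell, so that they too were called about as often as all genes (18.2%): Cish (1.24 ± 0.31), Socs2 (1.22 ± 0.31) and Socs5 (0.93 ± 0.25), each an inhibitor of cytokine signals. Of 23 chemokine and NF-kB response genes 8 fell and 3 rose, and 5 fell without P0 library 2 or P28 library 1 and 4 without P28 library 2. The noncanonical subunits Relb and Nfkb2 rose by 1.18 ± 0.32 and 0.81 ± 0.24, as did the chemokine Ccl5. The chemokines Cxcl16 and Ccl9 fell (-5.10 ± 0.75 and -1.21 ± 0.39), the activation marker Cd83 fell by 2.71 ± 0.61, and the NF-kB regulator Nfkbiz fell by 1.36 ± 0.32.

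Immediate early genes, which respond within minutes to growth signals and to handling of cells, fell in 8 of 25 members, with Myc the member that rose. The number of falls was 3 without P0 library 4 or P28 library 1, 4 without P0 library 2, P28 library 2 or P28 library 4 and 5 without P28 library 3. Fos was at 4.25, 20.3, 20.0 and 16.7 CPM at P0 and 0.581, 2.40, 0.943 and 1.03 CPM at P28 and fell by 3.62 ± 0.57 (adjusted p = 0.000114). Its partners Jun and Jund fell (adjusted p = 0.00883 and 0.000726), the mRNA-decay factor Zfp36 fell by 0.64 ± 0.19 and the quiescence factor Klf2 fell by 2.01 ± 0.65. In WT cells 12 members fell, with -5.23 ± 0.61 for Fos. Homing and adhesion genes gave 6 falls and 1 rise (Esam) among 23, and 3 falls without P0 library 2 or P28 library 1. Over all genes 8.45% fell and 9.79% rose. The integrin chain Itgam fell by 1.20 ± 0.31, the sphingosine-1-phosphate receptor S1pr1, which guides egress, fell by 0.89 ± 0.22, and the sialomucin Cd164 fell by 0.55 ± 0.16. Cxcr4, the receptor for CXCL12, went from 31.6, 73.2, 38.9 and 74.2 CPM to 30.1, 46.1, 25.3 and 25.5 CPM; its groups overlapped, and its call (-0.78 ± 0.26, adjusted p = 0.036) was held in 9 of the 18 alternative settings.

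Transcripts of the mitochondrial genome fell as a block. All 13 protein-coding genes fell, with log2 fold changes from -2.64 to -1.67 and a median of -1.99. Their summed level was 9072, 14084, 8681 and 16592 CPM at P0 and 3047, 4300.1, 3274 and 3162 CPM at P28. The highest P28 library stayed under the lowest P0 library. mt-Co1, a subunit of cytochrome oxidase, went from 3189, 4125, 2407 and 4663 CPM to 959.5, 1316, 1111 and 1022 CPM (-1.71 ± 0.26, adjusted p = 9.65e-05), and the ribosomal RNA mt-Rnr2 fell by 2.23 ± 0.45. With offsets for GC content and length 11 members fell, with a median of -1.31. In WT cells edgeR, DESeq2 and limma called none and 1 had an unadjusted p under 0.05. The summed level there was 15169 ± 9312 CPM (SD, n = 4) at P0 and 11506 ± 1977 CPM at P28. P0 WT library 4 stood apart at 28862 CPM, against 9760, 13154 and 8900 CPM in P0 WT libraries 1 to 3. Its part in the WT change and in the differences below was not tested. All 13 differences were negative, with a median of -1.55; edgeR called none of them, although all 13 had an unadjusted p under 0.05, and DESeq2 called 8 and limma 7. The part of RNA quality in this change was not tested. The nuclear long noncoding RNAs Malat1 and Neat1, singled out after their values were seen, also fell (-2.54 ± 0.49 and -2.72 ± 0.33), from 614 ± 139 to 106 ± 32.1 CPM and from 41.9 ± 14.8 to 6.39 ± 3.38 CPM.

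The nuclear-encoded partners were less uniform. Of 76 nuclear genes of the respiratory chain 11 fell and 3 rose, so that they were called about as often as all genes (18.2%). The falls numbered 29 without P0 library 1 and 21 in DESeq2. They numbered 0 to 3 without any 1 of P0 libraries 2 and 4 and the 4 P28 libraries. Sdha, a subunit of succinate dehydrogenase, rose by 0.79 ± 0.15. Of 82 cytosolic ribosomal protein genes 9 fell and none rose, with a median of -0.47, beside 8.45% that fell over all genes. Again 29 fell without P0 library 1, 0 to 3 without any 1 of P0 libraries 2 and 4 and the 4 P28 libraries, and 28 in DESeq2. Rps7 and Rps3 fell (-0.81 ± 0.23 and -0.74 ± 0.22). In glycolysis 4 of 19 rose, the phosphofructokinases Pfkl (1.00 ± 0.22) and Pfkm (1.16 ± 0.27), the hexokinase Hk1 (1.00 ± 0.24) and the pyruvate kinase Pkm (0.62 ± 0.20), and 3 fell, the lactate exporter Slc16a3 (-1.97 ± 0.38), the glucose transporter Slc2a1 (-0.60 ± 0.16) and the lactate dehydrogenase Ldha (-0.56 ± 0.15). Of 24 cholesterol synthesis genes 3 fell, Fdps, Mvd and Tm7sf2, and 21 were not called, beside 8.45% that fell over all genes. Only 1 fell without P0 library 2, P28 library 1, P28 library 2 or P28 library 3. None of 8 replication-dependent histone genes was called by edgeR, DESeq2 or limma or had an unadjusted p under 0.05; their mRNAs lack poly(A) tails, and their summed level was 22.4 to 52.4 CPM at P0 and 16.9 to 34.7 CPM at P28.

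Among called genes that averaged 3 or more on the log2 CPM scale and whose groups were separate, the largest rises other than Dntt and the H2-Q genes were Esr1, the estrogen receptor (3.83 ± 0.44, from 4.69, 0.675, 5.07 and 6.71 to 57.5, 50.6, 66.0 and 69.4 CPM), Myl10, a myosin light chain (3.64 ± 0.45), the monocarboxylate transporter Slc16a11 (3.25 ± 0.45), the fatty acid amide hydrolase Faah (3.01 ± 0.41), the membrane-binding copine Cpne2 (2.98 ± 0.55) and Cpt1a, which brings fatty acids into mitochondria (2.78 ± 0.62). WT cells changed by 3.88 ± 0.45 for Esr1 and 2.18 ± 0.60 for Cpt1a. Under the same conditions the largest falls were cystatin-like genes of neutrophils, Stfa1 (-11.99 ± 2.15, from 1151 ± 959 to 0.322 ± 0.422 CPM) and Cstdc5, and the 12 largest also held myeloid genes such as Cybb, the oxidase subunit (-5.36 ± 0.92), the complement factor C3 (-5.41 ± 1.14) and F13a1, a clotting factor of monocytes (-4.92 ± 0.76). Calls of Stfa1 and Cstdc5 were lost in limma with voom quality weights. Of the most abundant called genes, the adhesion receptor Adgrg1 rose by 0.97 ± 0.24, the histone variant Macroh2a1 by 1.20 ± 0.19, the nuclear RNA-binding protein Hnrnpu by 0.93 ± 0.23 and the chaperone Hsp90ab1 by 0.66 ± 0.14. Tmsb4x, an actin-binding peptide, fell by 1.72 ± 0.31, and the histone variant gene H3f3b fell by 0.68 ± 0.18, a call lost without P0 library 2.

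Much of the change was shared with WT. There, 1771 genes were called (719 rose and 1052 fell), and 994 genes were called with the same sign in both genotypes, which is 23.6% of the ME calls and 56.1% of the WT calls, with 17 of opposite sign. Over the 10194 genes with a mean of at least 3 on the log2 CPM scale the 2 sets of log2 fold changes correlated at r = 0.71, across genes, which are not independent replicates. The change itself differed in 166 genes (0.72%), more positive in ME in 108 and more negative in 58, which makes 65.1% positive, against 43.0% with RLE scaling and 11.0% with plain totals. That number is unsteady: it was 14 without P28 library 1 or without P28 library 2, 61 without P28 library 3, 62 and 64 without P0 libraries 2 and 4, and 86 with RLE scaling, 73 with plain totals and 774 in DESeq2.

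Of the large differences named here by rule, 2 were called under all 18 alternative settings, Ehd3 and Kcnq1ot1. Those settings left out single ME libraries but no single WT library. Ehd3, an endosomal recycling protein, was at 11.9, 5.59, 7.75 and 9.53 CPM at P0 and 36.8, 32.5, 41.8 and 28.1 CPM at P28 in ME, and at 8.09 ± 3.61 CPM at P0 and 4.41 ± 0.991 CPM at P28 in WT (SD, n = 4). It rose in ME by 2.00 ± 0.35 and was not called in WT (-0.88 ± 0.34, adjusted p = 0.122), with a difference of 2.88 ± 0.49 (adjusted p = 0.00841). The other positive differences were the nuclear pore subunit Nup205 (2.02 ± 0.46), the DNA repair gene Brca1 (2.01 ± 0.43), Dnmt1 (1.96 ± 0.46) and Col18a1, a basement membrane collagen that fell in both genotypes (-1.53 ± 0.45 in ME and -4.45 ± 0.51 in WT). Brca1 went from 21.7, 13.2, 37.7 and 26.5 CPM to 86.8, 90.8, 69.6 and 54.7 CPM in ME and was at 25.3, 38.5, 42.3 and 30.8 CPM and 22.6, 25.7, 28.1 and 27.1 CPM in WT. Further negative differences were those of the chemokine Ccl3 (-3.10 ± 0.62), the antisense RNA Ino80dos (-2.63 ± 0.53) and the transcription factor Tfec (-2.46 ± 0.55). Ccl3 rose in WT by 2.16 ± 0.45 and was not called in ME, where its groups overlapped. Mir99ahg, a microRNA host RNA singled out after its values were seen, fell in ME fell by 2.06 ± 0.35 and rose in WT by 1.11 ± 0.34, with a difference of -3.17 ± 0.49 called in all 18 settings. Ino80dos and Mir99ahg carry the same limit of strand as Kcnq1ot1.

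**Figure D5:**
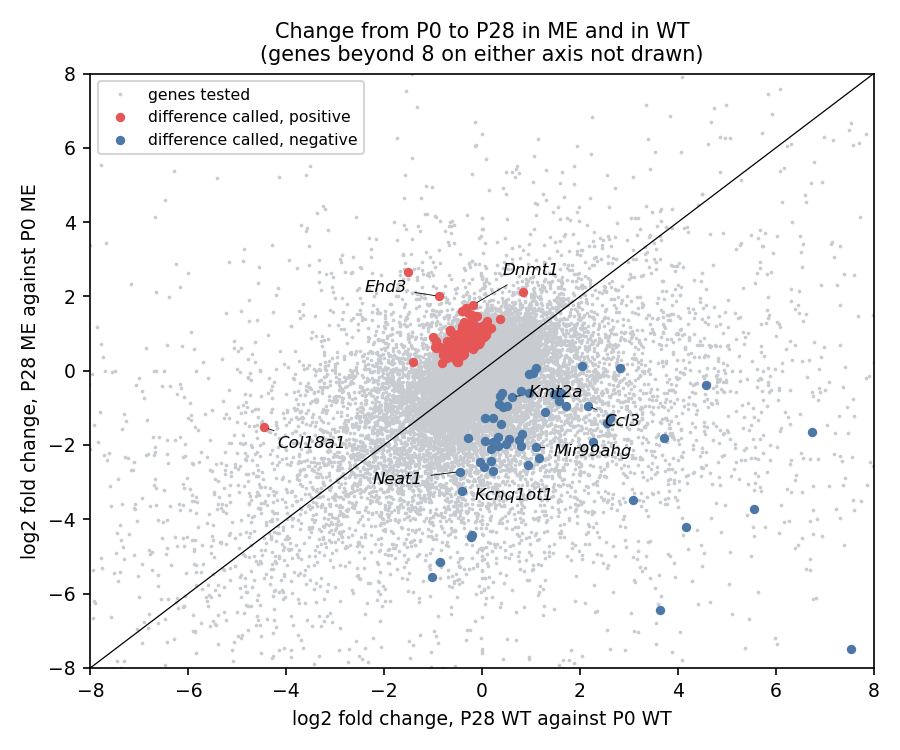
Each point is 1 gene, with the log2 fold change of P28 over P0 in WT on the x axis and in ME on the y axis; the line marks equal change, and coloured points are genes whose difference was called, red where more positive and blue where more negative in ME. Dnmt1 lies at -0.18 in WT and 1.78 in ME and Ehd3 at -0.88 and 2.00, while 205 genes beyond 8 on either axis are not drawn.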

How the data were processed

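The labels' protocols name a Qiagen kit (RNeasy Plus) for RNA and a Clontech kit (spelled SMRTr) for the libraries. Reads were aligned with STAR 2.7.9a to GRCm38 and counted with featureCounts 2.0.3, per the submitters' processing notes; the strand setting, the treatment of reads that map to several places and the annotation release were not given in the sources used here. The authors deposited 1 table of raw counts per Ensembl gene with 24 columns. It held 55774 rows, and 287 rows that repeat an identifier were dropped. Of 55487 identifiers, 55141 had a gene in GENCODE M21, from which GRCm38 positions were taken. Symbols were those of the deposited counts, or of GENCODE M21 where none was given.

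Groups came from the sample titles. All 24 libraries (31233688 to 89774511 counts) were fitted together in R 4.3.3 with edgeR 4.0.16: filterByExpr (minimum count 10), TMM scaling, 1 mean per group, robust quasi-likelihood F-test with 18 residual degrees of freedom and Benjamini-Hochberg adjustment over 23059 genes. The contrasts were P28 against P0 in ME, the same in WT, and their difference. A floor of 3 counts in each library was used for folds against groups without signal, and covers counting error only. Whether the replicates were separate animals is stated only as biological replicates, so p-values measure the spread between these samples. Replicate numbers were not treated as pairs.

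The genes named were, among called genes whose log2 CPM averaged 3 or more and whose 2 groups were separate, the 12 largest rises and falls and the 6 rises and 6 falls with the highest CPM, leaving out predicted gene models, antigen receptor segments and sex markers. To these were added the 5 largest differences from WT in each direction, and per list up to 5 called members with the smallest adjusted p and its first 3. Further members of a list are named with their values, and Neat1, Malat1 and Mir99ahg were chosen after their values were seen; some genes that the rule names are not reported here. Members and gene lists were chosen with earlier results of these data known, so list counts are descriptions and no list was tested as a set. The 18 alternatives changed 1 choice at a time, except that limma used voom and quality weights together and the replicate block was added to a fit of 20 libraries: RLE scaling, plain totals, DESeq2 1.42.0, limma 3.58.1 with voom quality weights, no filter, a stricter filter, only the groups compared, 20 numbered libraries without and with a replicate block, GC and length offsets (added after seeing the data), and each of the 8 libraries left out. No single WT library was left out. The pipeline was tested on simulated counts. Figures were drawn with matplotlib 3.10.9.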

Additional observations from a re-analysis of the deposited data

Results flagged for a closer look

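In groups of 4, a library was singled out when its distance to the nearest other, divided by the range of the group, exceeded Dixon's 95% critical value, which chance gives in about 1 of 20 groups. Of 162 groups tested, 11 held such a library, 6 of them P0 ME library 1. That library was the highest P0 library for H2-Q7 (6.23 CPM), H2-Q6 (13.0 CPM) and H2-D1 (1317 CPM), for the summed MHC class II list (716.7 CPM) and for the summed MLL-fusion target list (4417 CPM), and the lowest for Kcnq1ot1 (33.7 CPM). P0 library 3 was the lowest for B2m (1128 CPM). At P28, library 2 was the highest for mt-Cytb (1300.2 CPM) and for the summed erythroid list (3198 CPM), library 3 was the highest for the summed endothelium and stroma list (324 CPM), and library 4 was the lowest for the summed glycolysis list (6398 CPM).

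The change from P0 to P28 differed between ME and WT in the genes that follow, by edgeR's quasi-likelihood test of the difference itself. More positive in ME were Col18a1 (2.92 on the log2 scale), Ehd3 (2.88), Nup205 (2.02), Brca1 (2.01) and Dnmt1 (1.96). More negative in ME were Ccl3 (-3.10), Kcnq1ot1 (-2.85), Ino80dos (-2.63) and Tfec (-2.46). The calls of Ehd3 and Kcnq1ot1 were held in all 18 alternative settings. Those of Ino80dos, Ccl3 and Brca1 were held in 16, 15 and 13, and those of Col18a1 and Tfec in 11 each. Nup205 held its call in 9 and Dnmt1 in 8.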

How the results depend on the processing

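Of 197 named genes that were called, 148 were called in all 18 alternatives, 49 lost the call in at least 1 and none changed direction; 14 of the 49 lost it only when 1 library was left out. Losses were most frequent without P28 library 1 (30 genes), P0 library 2 (26) and P28 library 2 (23), and 0 genes were lost in DESeq2. The number called between P28 and P0 in ME (4206) was 2268 with a 2-fold minimum and 2742 to 4818 with 1 library left out. The number called in the difference from WT (166) was 86 with RLE scaling, 73 with plain totals, 774 in DESeq2, 644 in limma with quality weights, 65 without a filter, 440 with GC and length offsets, 28 with only the groups compared, and 14 to 239 with 1 library left out. In WT, 2720 genes were called in DESeq2 and 439 with only the groups compared, against 1771. The causes of these changes were not tested. Among genes that were not called, the sign turned for H2-Aa (0.44 in limma and -1.52 to 1.07 with 1 library left out) and Kmt2c (-0.078 to 0.28 with 1 library left out). Some genes given in the text held their call between P28 and P0 in ME in at most 9 alternatives. They were Il10rb and Il21r (4 each), Cd48 and Bcl2 (5 each), H2-DMb1 (6), Cd3d, Prg3 and Cd209a (7 each), Ccnb2 (8) and Cxcr4, H2-T23, Esam and Pkm (9 each). Among the differences from WT given in the text, such calls were those of Bub1 (7), Mcm6, Uhrf1, Rrm1, Cdc20 and Dnmt1 (8 each) and Nup205 (9). Depth allowed a floor of 3 counts per library, 0.0464 to 0.074 CPM in the P0 ME libraries.

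The deviations of same-numbered P0 and P28 ME libraries correlated at r = -0.0187, 0.0259, 0.298 and 0.166 for numbers 1 to 4. The first and second pairs stayed under 0.1, so the numbers were not taken as pairs; P28 libraries 3 and 4 correlated best with their own number and P28 libraries 1 and 2 did not. With the 20 numbered libraries, a replicate block gave 4330 called genes in ME and 306 in the difference, against 4316 and 352 without the block; in the mast cell and basophil list 4 genes fell with it and 8 without.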
